A study of Drosophila melanogaster with 3 samples.

Results

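The bithorax complex is the Hox gene cluster of chromosome arm 3R that holds Ubx, abd-A and Abd-B, and its 4C signal with 3 insulator binding sites as baits was read here from 4C arrays of S2-DRSC cells. The 3 genes were located by name in the authors' peak-to-feature tables, among 12206 gene names in all. 4C ligates DNA that lies near a chosen bait fragment in fixed nuclei and amplifies it by inverse PCR. BaitA (3R, 91997 to 92920), BaitB (2L, 8485115 to 8485894) and BaitC (3R, 384440 to 385252) each had 1 tiling array, with the 4C product in Cy5 and DpnII-cut, unligated genomic DNA in Cy3. All 3 arrays used the same untreated cultured line, an embryonic fly line with no allele or agent named in the labels, and DNA ratios cannot check its cell type.

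Hox genes encode homeodomain transcription factors that give segments their identity. Ubx acts in the posterior thorax and the anterior abdomen, abd-A in the middle abdomen and Abd-B in the posterior abdomen, and the genes lie along the chromosome in the order of the segments they control. Long regulatory stretches between and within them are divided by boundary elements bound by insulator proteins, and Polycomb and trithorax group proteins keep them silent or active. On coordinates that have the arm lengths of Drosophila Release 5, the tables gave Ubx a span of 74.7 kb (12484493 to 12559185), abd-A one of 18.3 kb (12635408 to 12653725) and Abd-B one of 3.64 kb (12755110 to 12758753). All 3 lie on the minus strand. The Abd-B transcripts listed are short ones, and longer Abd-B transcripts may start further upstream, so its span, its start sites and the flank beside them are given as listed. Ubx had 6 listed transcripts from 1 start site, at 12559185. For abd-A there were 2 transcripts, from start sites at 12652945 and 12653725, and for Abd-B 5 transcripts from start sites at 12757327 and 12758753. The outermost start sites lay 12.5 to 12.7 Mb from BaitA and 12.2 to 12.4 Mb from BaitC, and on another chromosome than BaitB.

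Values are log2 ratios of 4C product over unligated DNA, minus the median of the array. Each array held 2157868 probes, with a median step of 55 bp on 3R, and the SD over all probes was 2.45 for BaitA, 2.5 for BaitB and 1.50 for BaitC. The probes inside each array's own bait averaged 7.53 to 8.57. There was 1 array per bait, so no value has a replicate error, nothing was tested and no p-value is given. Spreads are over probes or windows within an array, and the number of arrays limits the precision. Going by the file headers, BaitA and BaitB shared a slide used more than once, and BaitC came from a different slide. The part of the slide in any difference between arrays cannot be told apart from that of the bait.

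The start sites of the Hox genes of the bithorax complex were neither high nor low for their arm. Within 1 kb of its start site, Ubx averaged 1.30 ± 0.74 for BaitA, -0.27 ± 1.95 for BaitB and 0.59 ± 1.52 for BaitC (SD over 35 probes). The probes ran from -0.84 through a median of 1.26 to 2.72 for BaitA, from -4.22 through 0.63 to 2.56 for BaitB, and from -2.76 through 0.86 to 3.24 for BaitC. The BaitA probes were thus the most even at Ubx, with 94.3% of them above the array median, against 54.3% for BaitB and 71.4% for BaitC. Set against 8583 windows of 2 kb on 3R beyond 10 Mb, outside the complex, these means stood at percentiles 83.7, 50.3 and 77.5. Among the start sites of 1723 other genes there, which were higher than the windows in the median, they stood at 80.2, 40.3 and 69.4.

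For abd-A the mean over the 49 probes near either start site was -0.59 ± 1.56 for BaitA, -1.95 ± 1.22 for BaitB and -0.14 ± 1.32 for BaitC. It was below the array median for every bait and lowest for BaitB, although with 5 kb on each side of the start sites the BaitA value was 0.35, and with 0.5 kb the BaitC value was 0.0039. The percentiles among 2 kb windows were 44.2, 17.8 and 47.3. Its start sites lie 780 bp apart, so their windows share probes. At the outer site, 12653725, the BaitA mean was -1.33, and at the inner site it was 0.06. The BaitB mean was -1.91 at the outer site and -1.85 at the inner site. Among the start sites of the 1723 other genes of 3R beyond 10 Mb, abd-A stood at percentile 32.5 for BaitA, 8.94 for BaitB and 32.85 for BaitC. These genes are in the tables because a peak of some bait was paired with them.

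Abd-B averaged 1.17 ± 1.60 for BaitA, -0.38 ± 2.03 for BaitB and 0.03 ± 1.14 for BaitC over 58 probes, at percentiles 81.2, 47.5 and 54.0 of the windows. Among the start sites of other genes the percentiles were 77.4, 37.0 and 41.4. The BaitA probes ran from -0.16 to 3.40 at the inner start site, 12757327, where the mean was 1.61, and from -2.27 to 3.59 at the outer site, 12758753, where it was 0.87. The BaitB probes spread from -3.48 to 3.25 at the inner site, so their mean describes no even level.

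**Figure D1:**
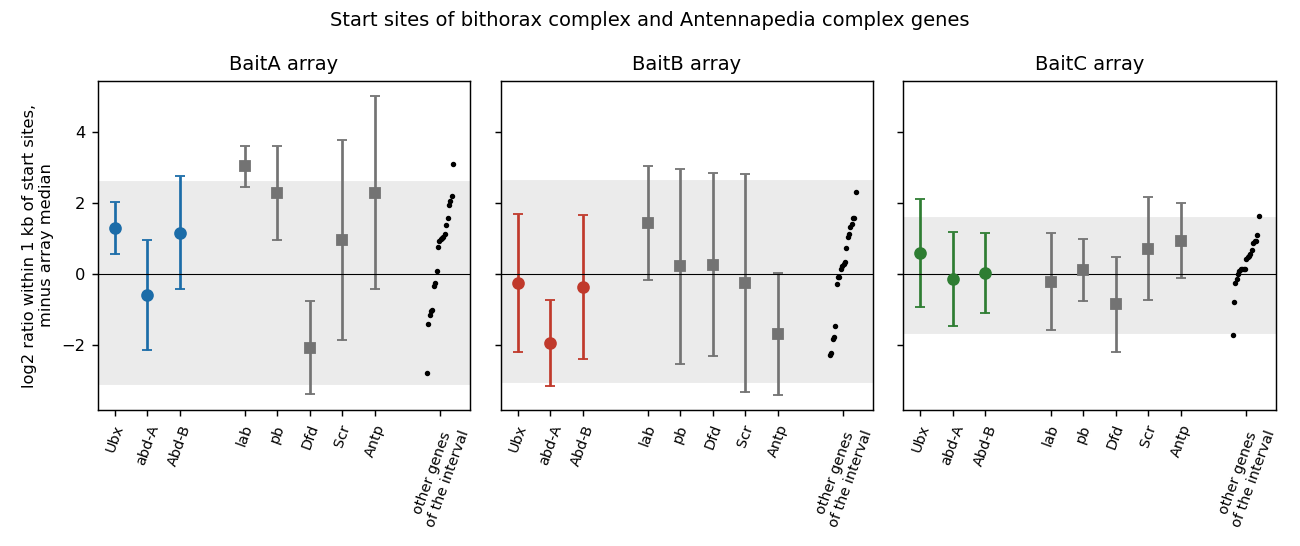
Mean log2 ratio within 1 kb of start sites, minus the array median, in each array (vertical axis; bars are the SD over probes). Circles are Ubx, abd-A and Abd-B, squares the 5 Antennapedia complex genes, dots the other 20 start sites of the interval in rising order, and the grey band the central 95% of 2 kb windows on 3R beyond 10 Mb. All 9 values of the bithorax Hox genes lie inside the band.

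In the order of levels, abd-A was lowest and Ubx highest for every bait, but the order depended on the setting. Abd-B stood above Ubx for BaitA and BaitB with 5 kb on each side (0.62 and 0.62, against 0.58 and -0.81 for Ubx) and with 2 kb (1.07 and 0.11, against 0.60 and 0.0053). It did so for BaitA with medians over probes (1.625, against 1.26), and with 0.5 kb abd-A was above Abd-B for BaitC (0.0039, against -0.18). For BaitA, BaitB and BaitC in turn, Ubx exceeded Abd-B by 0.14, 0.12 and 0.56 and abd-A by 1.89, 1.69 and 0.72. The SD over 2 kb windows of 3R was 1.57, 1.58 and 0.85. Ubx and Abd-B thus differed by less than 1 such SD for each bait, while Ubx stood above abd-A by more than 1 SD for BaitA and for BaitB and by less for BaitC. A log2 value of 1 marks a 2-fold distance from the array median. Ubx and Abd-B were past it for BaitA, upwards, where 34.9% of 12158 genes were. For BaitB, abd-A was past it downwards, where 20% of genes were. No member was past it for BaitC, where 17.1% of genes were above and 5.07% below.

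The values around the start sites changed within a few kb. In 1 kb steps upstream of Ubx, the step centred 4.5 kb away was at 3.42 for BaitA, against -1.92 for BaitB and 1.04 for BaitC. Upstream of Abd-B, the step centred 2.5 kb away was at 4.88 for BaitB, against -0.26 for BaitA and 0.50 for BaitC. Downstream of abd-A the BaitB ratio stayed negative in the first 8 steps and reached -3.42 in the step centred at 5.5 kb, where the BaitA ratio was 2.39. These steps were picked for their contrast after the values were seen. In others the arrays were alike, as in the step centred 3.5 kb downstream of Ubx, at -2.33 for BaitA, -2.47 for BaitB and -1.01 for BaitC, or the step 1.5 kb upstream of Abd-B, at 2.45 for BaitA and 3.04 for BaitB.

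**Figure D2:**
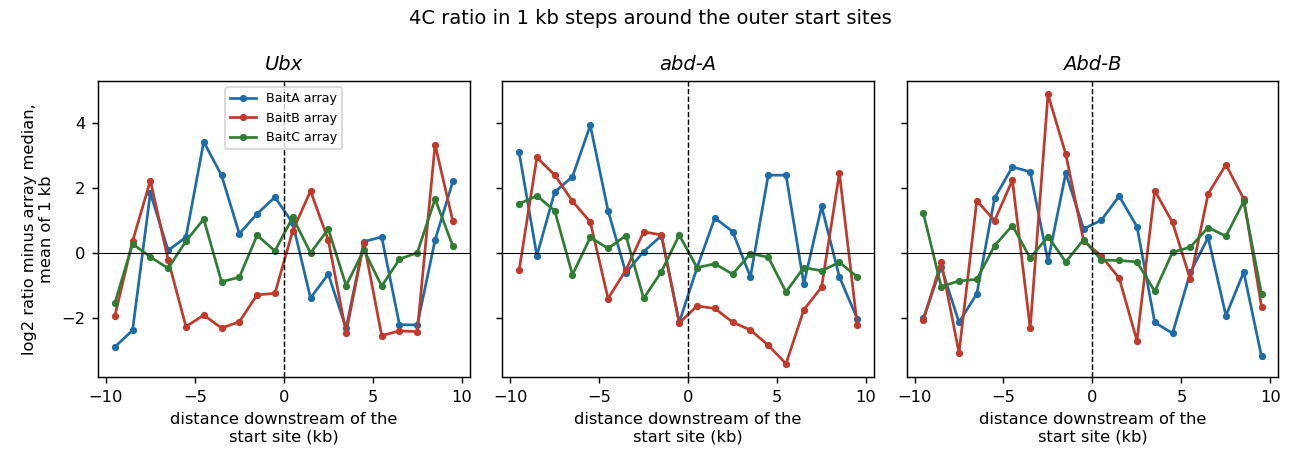
Mean log2 ratio in 1 kb steps up to 10 kb on each side of the outermost listed start site of each gene (horizontal axis in kb, downstream positive; vertical axis minus the array median), 1 line per array. The Abd-B panel holds the BaitB maximum of 4.88 upstream of the start site, and the abd-A panel the negative BaitB stretch downstream.

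Other genes with a like pattern were spread along the arm. By the distance over the 3 arrays in units of the SD of start site values, the nearest of 1723 genes on 3R beyond 10 Mb to Ubx were TotZ, a stress-response gene, ETHR, which encodes a receptor of ecdysis triggering hormone, and CG5639, at 0.10 to 0.16 SD. Nearest to abd-A were Mtl, a Rac-like GTPase gene, CG10311 and CASK, a scaffold kinase gene, at 0.15 to 0.29 SD. Nearest to Abd-B were srp, the GATA factor gene of blood and fat body, Nepl21 and Cyp313a1, at 0.16 to 0.21 SD. With 3 values a gene, near matches are easy to find in a set of this size.

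The Antennapedia complex, the other Hox cluster of 3R, lies much nearer to BaitA and BaitC, 2.41 to 2.64 Mb from BaitA, so its values are given side by side with no comparison. Against the BaitA values of the bithorax genes above, lab, a head gene, averaged 3.04, pb 2.29, Dfd -2.09, Scr 0.96 and Antp, the gene of the middle thorax, 2.30. For BaitB these 5 genes ran from -1.70 at Antp to 1.44 at lab, and for BaitC from -0.86 at Dfd to 0.94 at Antp. The median of the 3 bithorax genes was 1.17, -0.38 and 0.03 in the order BaitA, BaitB and BaitC, and that of the 5 Antennapedia genes was 2.29, 0.22 and 0.11. These medians depended on the window. With 5 kb on each side of the start sites, both BaitA medians were 0.58. For BaitB with 0.5 and 2 kb, the Antennapedia median was -0.39 and -0.64, and the bithorax median -0.65 and 0.0053.

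Across the whole complex (3R, 12450000 to 12820000), the ratio followed the level of distal 3R. The 6543 probes averaged -0.15 ± 2.4 for BaitA, -0.30 ± 2.42 for BaitB and -0.18 ± 1.49 for BaitC. Windows of 370 kb, moved in steps of 50 kb along 3R beyond 10 Mb, had medians of -0.32, -0.28 and -0.08 and ran from -0.99 to 0.25, from -1.03 to 0.28 and from -0.55 to 0.27. Among these 336 overlapping windows the complex stood at percentile 70.8 for BaitA, 45.2 for BaitB and 24.1 for BaitC. The probes of distal 3R had medians of -0.59, -0.55 and -0.15. Centred on these, the means of the complex for BaitA and BaitB were 0.44 and 0.25, and the BaitB start site values of Ubx and Abd-B turned positive, at 0.28 and 0.17.

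**Figure D3:**
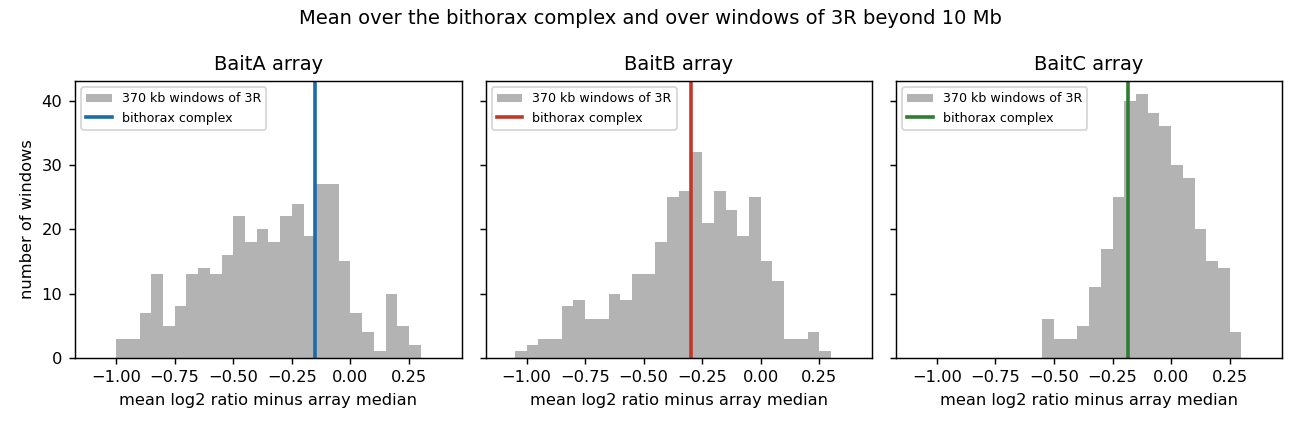
Number of 370 kb windows on 3R beyond 10 Mb (vertical axis) by mean log2 ratio minus the array median (horizontal axis), with the mean over the bithorax complex as a line. The line lies at -0.15, -0.30 and -0.18, inside the windows of each array.

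In bins of 5 kb the complex held 74 values per array. They ran from -2.76 to 2.41 for BaitA, from -2.86 to 2.53 for BaitB and from -1.82 to 1.56 for BaitC, with SDs over bins of 1.24, 1.19 and 0.68, against 1.16, 1.18 and 0.64 for 3459 bins elsewhere on 3R beyond 10 Mb. Bins at least 1 above the array median came to 17 with BaitA, 9 with BaitB and 5 with BaitC, or 23.0%, 12.2% and 6.76%, against 12.6%, 14.7% and 4.39% of the bins elsewhere. Bins at least 1 below it numbered 19, 22 and 10, or 25.7%, 29.7% and 13.5%, against 29.3%, 28% and 8.44%. In the complex the share above was the higher for BaitA and BaitC, and the share below for BaitC. The BaitC shares rest on 5 and 10 bins. The other shares lay near the background. Centred on the median of 3R beyond 10 Mb instead, which raised all values by 0.59, 0.55 and 0.15, the shares above came to 35.1% with BaitA, 28.4% with BaitB and 8.11% with BaitC, against 27.9%, 27.6% and 7.17% elsewhere. The shares below were then 10.8%, 20.3% and 8.11%, against 15.3%, 15.4% and 5.44%.

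**Figure D4:**
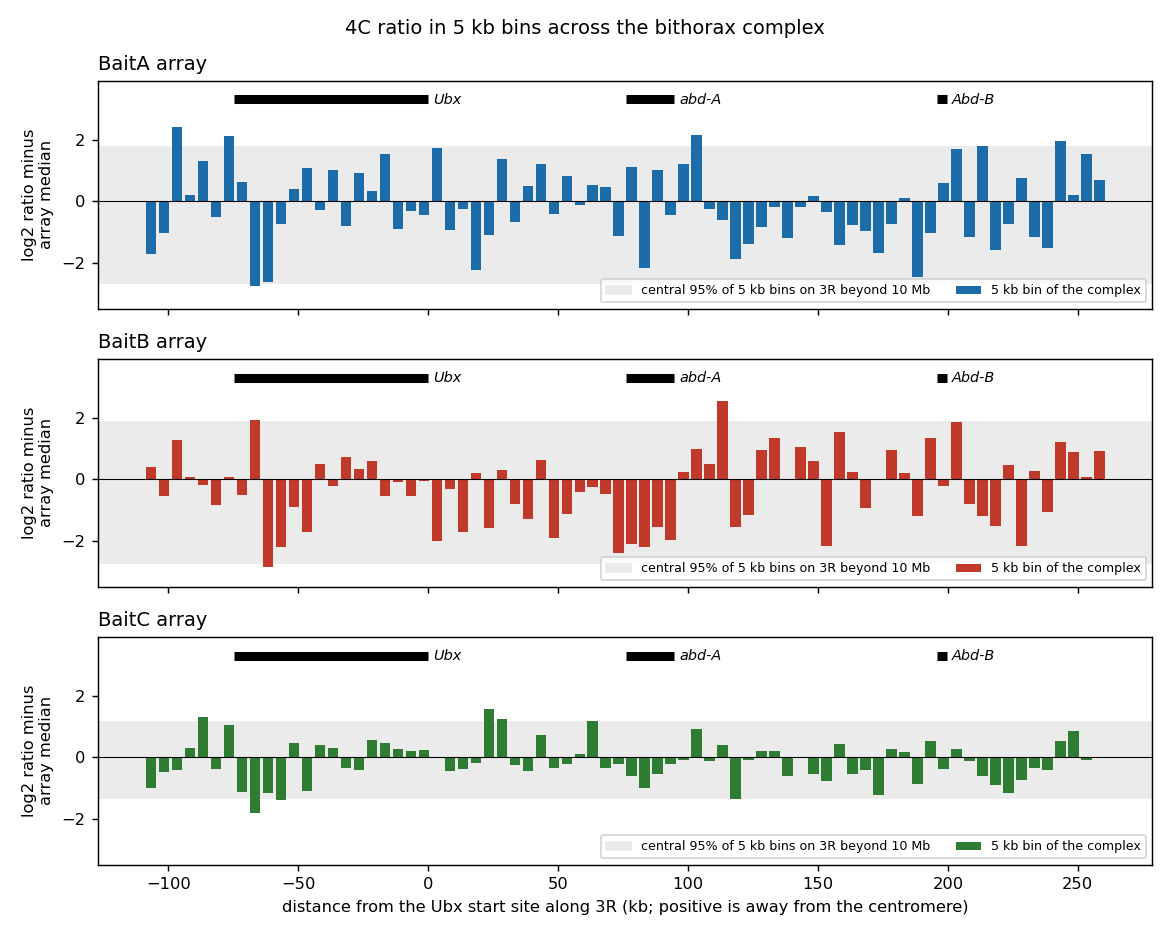
Mean log2 ratio minus the array median (vertical axis) in 5 kb bins across the bithorax complex, by distance in kb from the Ubx start site (horizontal axis), 1 panel per array. Black bars are the listed spans, and the grey band is the central 95% of bins on 3R beyond 10 Mb. Under abd-A, all 4 BaitB bins lie below -1, a level reached by 28% of BaitB bins elsewhere on 3R beyond 10 Mb.

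The bin of the lowest value was 12490000 to 12494999 for BaitA and for BaitC, and the bin next to it, 12495000 to 12499999, for BaitB. Both lie in the downstream end of the Ubx span. In the first of these bins, however, the BaitB array was at 1.92. The 16 bins that touch the Ubx span had medians of 0.02, -0.16 and 0.20 for the 3 baits. At or above 1 were 4, 1 and 1 of these 16 bins, where 12.6%, 14.7% and 4.39% of bins elsewhere on 3R beyond 10 Mb were. At or below -1 were 2, 3 and 5, where 29.3%, 28% and 8.44% were.

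The abd-A gene was low in the BaitB array. Over the abd-A span the BaitB probes averaged -2.02 ± 1.83, and 31 of 328 probes lay above the array median. The BaitA mean was 0.00 ± 2.20, and the BaitC mean was -0.67 ± 1.19. Against 952 windows of the same length on distal 3R, these stood at percentile 1.16 for BaitB, 65.1 for BaitA and 9.45 for BaitC. Without the BaitB peak inside the span and 500 bp on each side of it, the BaitB mean was -2.30 over 302 probes. Leaving out a called peak takes out high probes, and the windows were not treated in this way. The lower mean is thus no further sign of a low level. The complex was divided into 7 segments, the 3 spans, the stretches between them and the flanks. Of the 21 segment values the BaitB value of abd-A was the only 1 outside the central 95% of its windows, a range that by its construction leaves out 5% of windows. This low stretch reached past the gene: 10 bins in a row, from 12605000 to 12654999, lay below the BaitB median, with a mean of -1.45. Runs at least that long occurred in 32.4% of the 336 windows elsewhere.

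The other segments lay nearer to the array medians. The Ubx span averaged -0.24 ± 2.28 for BaitA, -0.36 ± 2.25 for BaitB and -0.32 ± 1.48 for BaitC. The 76.2 kb between Ubx and abd-A averaged -0.02 for BaitA, -0.90 for BaitB (percentile 10.5 of its windows) and 0.02 for BaitC. The 101 kb between abd-A and Abd-B averaged -0.64 for BaitA, 0.24 for BaitB (percentile 89.0) and -0.18 for BaitC. The stretches on either side of abd-A thus had BaitB means of opposite sign. The short listed span of Abd-B averaged 0.51 ± 1.82, -0.61 ± 2.4 and -0.49 ± 1.21. The left flank, from 12450000 to Ubx, averaged 0.41 for BaitA (percentile 91.1), 0.01 for BaitB and 0.05 for BaitC.

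The right flank, from the listed end of Abd-B to 12820000, averaged 0.22 for BaitA, -0.08 for BaitB and -0.23 for BaitC, at percentiles 87.4, 66.7 and 32.6. A division chosen after the values were seen separates in it a stretch with no listed gene, which may hold longer Abd-B transcripts, from a run of genes that begins with VhaM9.7-d. The first 42.2 kb averaged -0.15, -0.46 and -0.48. The last 19.1 kb averaged 1.04 for BaitA, 0.75 for BaitB and 0.32 for BaitC, at percentiles 98.7, 94.5 and 83.2 of windows of that length.

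The likeness of probes faded within a few kb. Between probes 55 bp apart within the complex Pearson's r was 0.895 for BaitA, 0.888 for BaitB and 0.732 for BaitC. It was 0.414, 0.434 and 0.269 at 500 bp, 0.208, 0.201 and 0.149 at 1000 bp and 0.007, 0.007 and 0.021 at 5000 bp. Elsewhere on distal 3R it was 0.413, 0.407 and 0.311 at 500 bp and 0.036, 0.039 and 0.043 at 5000 bp. Neighbouring probes share a fragment or a ligated stretch, so these values are descriptions, and the probes of a start site window are far fewer independent measurements than their number. Between neighbouring 5 kb bins r was 0.03, 0.06 and 0.18.

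The 3 arrays resembled each other over the complex to the usual degree of the arm. Over 74 bins the BaitA profile had a Pearson's r of 0.143 with that of BaitB and of 0.439 with that of BaitC, and the BaitB and BaitC profiles one of 0.354. Over windows of the same length elsewhere on distal 3R the medians were 0.242, 0.363 and 0.332, and the complex stood at percentiles 17.9, 77.4 and 59.2. All arrays share the probes and their base composition. Bins above the array median for all 3 baits numbered 10 of 74, against 13.3% elsewhere, and bins below it for all 3 numbered 21, against 27.4%. At least 1 below for all 3 baits were 3 bins, against 3.61%.

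Peaks of FDR at most 0.05 in the complex were few: BaitA had 1, BaitB had 6 and BaitC had 6. That is 2.70, 16.2 and 16.2 peaks per Mb, against 7.87, 19.1 and 16.1 on the rest of 3R beyond 10 Mb. Windows of the same length held a median of 3, 6 and 5 peaks, and the complex stood at percentiles 21.7, 45.1 and 56.7 among them. The BaitA peak was kept at FDR at most 0.01, where windows held a median of 0 BaitA peaks and at most 1. Peaks, scores and FDR values are the authors', called for each array on its own, and the score is the highest log2 threshold at which a peak was called. Between the outer listed ends of Ubx and Abd-B BaitA had none, BaitB had 2 and BaitC had 3, while the other peaks lay in the flanks.

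Each member was paired with a BaitB peak in the authors' deposited table. At FDR at most 0.05 BaitB peaks were paired with 37.7% of all gene names, BaitA peaks with 31.7% and BaitC peaks with 31.1%. Ubx was also paired with a BaitC peak, and no member with a BaitA peak. At FDR at most 0.2, a level that 70.1% of gene names reach for BaitA, Ubx was paired with 2 BaitA peaks, and abd-A and Abd-B with none. At that level Ubx had 2 BaitB peaks, and abd-A and Abd-B 1 each, where 71.6% of gene names had any, and Ubx had 3 BaitC peaks, where 59.9% had any. Peaks inside a span are paired with its gene, and the listed spans were 74.7 kb for Ubx, 18.3 kb for abd-A and 3.64 kb for Abd-B. Neither the counts nor the shares take length into account, so the larger numbers of Ubx do not set it apart.

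The Abd-B peak of BaitB (12760665 to 12760939, score 5.03, FDR 0.00805) lies 2049 bp upstream of the outer listed start site and is counted with the flank, although a longer transcript may include it. It averaged 5.12 ± 0.46 over 5 probes, against 0.05 ± 2.56 for BaitA and 1.00 ± 0.44 for BaitC. The abd-A peak of BaitB (12644953 to 12645427, score 4.596, FDR 0.0284) lies inside the span, 7755 bp downstream of the nearer start site. It averaged 4.65 ± 0.39 over 8 probes, while the flanks from 0.5 to 5 kb averaged -2.45, so it stood among low probes. The same interval was at -1.85 ± 0.85 for BaitA and 0.02 ± 0.64 for BaitC.

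In Ubx, peaks of all 3 baits lay within 2251 bp (12543853 to 12546103), inside the span. The BaitC peak at 12544683 to 12545075 (score 3.64, FDR 0.00218), centred 14306 bp downstream of the start site, averaged 3.42 ± 0.84 over 8 probes, and its interval was at 3.50 ± 1.55 for BaitA and -1.68 ± 1.75 for BaitB. The BaitA peak at 12544403 to 12544959 overlaps it and had a score of 4.40 and an FDR of 0.0934, past the limit of 0.05. The BaitB peak at 12545733 to 12546103 (score 4.596, FDR 0.0284) overlaps neither. It averaged 3.61 ± 2.37, against 0.69 ± 2.26 for BaitA and 1.31 ± 1.48 for BaitC. The BaitA and BaitC signals thus shared an interval in which the BaitB ratio was negative, and the BaitB signal lay beside it. A second BaitC peak, at 12543853 to 12544447 with an FDR of 0.0882, sets the left bound. Over the whole 2251 bp, which the peaks themselves bound, the means were 1.09, 0.24 and 1.53. Of 12 BaitA peaks of FDR at most 0.2 in the complex, 2 had a BaitB and a BaitC peak within 1 kb, where 8.41% of the 737 elsewhere on distal 3R had. The 336 windows of the complex's length held a median of 1 such BaitA peak and at most 9, so such places are usual on the arm. The other such place lies between Ubx and abd-A, at 12599848 to 12603363.

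**Figure D5:**
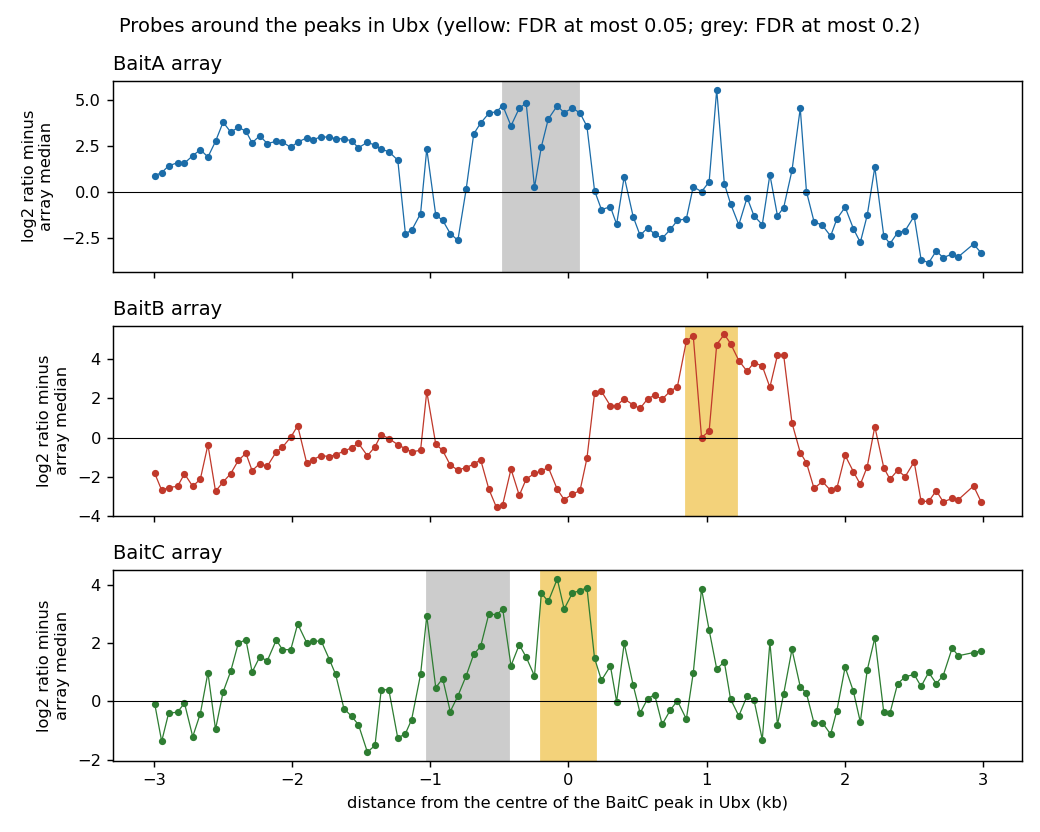
Log2 ratio of single probes minus the array median (vertical axis) within 3 kb of the centre of the BaitC peak in Ubx (horizontal axis in kb), 1 panel per array, with the authors' peaks shaded by FDR. The high probes of BaitA and BaitC cover the centre, and those of BaitB lie to its right.

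The other BaitC peaks of the regulatory stretches lay between Ubx and abd-A. That at 12580378 to 12581242 (score 3.55, FDR 0.00340), paired with CG31275 in the authors' deposited table, averaged 3.06 ± 0.66 over 16 probes, against -3.01 ± 0.63 for BaitA and -3.06 ± 0.68 for BaitB. It lies 21625 bp upstream of Ubx in a bin with 36 probes, where most bins of the complex hold 88 to 91. That at 12623558 to 12624107 (score 3.73, FDR 0.00266) was paired with no gene and averaged 3.51 ± 0.56, against -0.47 ± 1.57 for BaitA and -1.75 ± 1.15 for BaitB. Both intervals were picked as BaitC peaks, so their high BaitC ratio follows from the call. Of 283 BaitC peaks elsewhere on distal 3R, 38.5% were at least 1 above the array median for BaitA and 40.6% for BaitB. Low values of the other arrays in a BaitC peak were thus common on the arm.

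Peak intervals were then read in the arrays that had not called them. In the 6 BaitB peaks, the BaitC array was at least 1 above its median in 5, against 37.6% of 335 BaitB peaks elsewhere on distal 3R, and the BaitA array in 1, against 40.9%. In the 6 BaitC peaks, the BaitA array was so in 3, against 38.5%, and the BaitB array in 1, against 40.6%. In the 1 BaitA peak (12802090 to 12802305), in the right flank, neither the BaitB array, at -1.67, nor the BaitC array, at -0.02, was so, where 44.2% and 31.9% of BaitA peaks were. No peak of FDR at most 0.05 overlapped a peak of another bait in the complex. The share of overlapping peaks elsewhere on distal 3R was not computed. With so few and short peaks, the lack of overlap does not show that the baits differ.

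The Hox genes lie among other genes, which were read in the same way. The complex interval holds 20 start sites of 19 other genes, which ran from -2.80 to 3.10 for BaitA, from -2.29 to 2.30 for BaitB and from -1.74 to 1.63 for BaitC, against -1.33 to 1.61, -1.91 to 0.14 and -0.26 to 0.59 for the 5 member start sites, a range over fewer sites, some with shared probes. Their medians were 0.96, 0.25 and 0.29, against 0.87, -0.58 and 0.06 for the members. Of these start sites 9, 7 and 2 were at least 1 above the array median, where 34.9%, 35.8% and 17.1% of genes were. Fas1 (12451833), a cell adhesion gene, was low for all 3 baits, at -2.80, -2.23 and -1.74. Actn3 (12803341), an actinin gene, was high for all 3, at 2.21, 2.30 and 1.10. At least 1 above the median with 1 bait and at least 1 below it with another were 0 of the 3 Hox genes and 4 of the 19 other genes, where 13.9% of all genes were. Between the Hox genes, CG31275, Glut3, a sugar transporter gene, and CG10349 were at -1.16, 1.94 and 0.75 for BaitA, 0.29, -1.47 and -0.28 for BaitB, and 0.52, 0.47 and -0.80 for BaitC. Just outside the interval, CG14893 (12446550) averaged -0.43, 2.74 and 1.66, and CG3534 (12822310) -0.41, 0.49 and -0.61.

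Other genes of Hox regulation were read at their own loci. All 15 names of a list of Hox cofactors and targets, which holds abd-A and Antp too, were in the set, with medians of -0.20, -0.40 and 0.21, against 0.37, 0.39 and 0.26 for all genes. At least 1 above the median were 4, 2 and 2 of the 15, where 34.9%, 35.8% and 17.1% of all genes were. At least 1 below it were 3, 3 and 0, where 19.6%, 20% and 5.07% of all genes were. The extremes were exd, the Hox cofactor, at -2.09 and Antp at 2.30 for BaitA, abd-A at -1.95 and wg, a Wnt ligand gene, at 2.57 for BaitB, and kni at -0.77 and pnt at 1.19 for BaitC. Of these, Antp lies 2.64 Mb from BaitA, and wg lies on 2L, the arm of BaitB, at 7308509. Distance from the baits was not taken into account in either list. Of 29 Polycomb and trithorax group names 27 were in the set, with medians of 0.05, 0.30 and 0.27. Above by at least 1 were 8, 11 and 1 of these 27, against the same 34.9%, 35.8% and 17.1% of all genes. Below by at least 1 were 6, 8 and 2, against 19.6%, 20% and 5.07%. The extremes were mor, a chromatin remodeller subunit, at -2.79 and pho, the DNA-binding Polycomb group protein gene on chromosome 4, at 4.03 for BaitA, skd at -2.76 and Asx at 3.37 for BaitB, and mor at -1.12 and Snr1 at 1.67 for BaitC. Snr1 lies on 3R at 1296780, on the arm of BaitC and in its proximal part. No gene of either list was past 1 in the same direction for all 3 baits, as 3.22% of all genes were upwards and 0.864% downwards.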

How the data were processed

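The log2 ratios per probe are the authors' deposited values for 3 two-channel arrays. No source used here gives their log base or centring, so base 2 was assumed and the array medians (-0.16, -0.14 and -0.02) were subtracted. Inverse PCR saturates, so a ratio is not a contact frequency. Peaks were called with NimbleScan, per the file headers. The authors deposited an FDR per peak, from shuffled values, an estimate of the share of false peaks that is used here as deposited. The build is not named, and the 3R length in the file headers, 27905053 bp, is that of Drosophila Release 5. The RefSeq table is of Release 6 and gave names alone: 16148 of 17767 accessions matched, and 12158 of 12206 genes had at least 5 probes near a start site.

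Windows needed at least 5 probes, bins at least 20, and windows of the complex's or a segment's length at least 0.5 of the usual number. Named genes were all genes with a start site in the interval, its nearest neighbours, the listed Hox genes, extremes of the other lists and the nearest patterns. Members and lists were chosen with earlier results of these data known. Window functions were tested on simulated data. Python 3.11.15, numpy 2.4.6 and pandas 2.3.3 were used. Promoter sequence and motifs were not analysed here.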

Additional observations from a re-analysis of the deposited data

Results flagged for a closer look

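At 4 of the 19 other genes of the interval, a start site mean was at least 1 above the median in the array of 1 bait and at least 1 below it in that of another. These differences rest on 1 array each and were not tested. CG10324 averaged 3.10 for BaitA, -2.29 for BaitB and 1.63 for BaitC, differences of 5.39 (BaitA minus BaitB) and -3.92 (BaitB minus BaitC). Glut3 averaged 1.94 for BaitA and -1.47 for BaitB, a difference of 3.42. CG18622 averaged 1.01 for BaitA and -1.78 for BaitB, a difference of 2.79. AhcyL2 averaged -1.03 for BaitA and 1.59 for BaitB, a difference of -2.62. Over all genes 13.9% had such values, and 0 of Ubx, abd-A and Abd-B had.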

How the results depend on the processing

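With 1 array per bait, no array could be left out. No paired analysis was possible because each bait has 1 array and no replicate number. Of 180 recomputed values other than percentiles, 114 stayed within 0.5 log2 units, 0.1 in r or 1.5 times a count. Of 33 percentiles, all of start sites or the whole complex, 0 left the central 95% of the windows. Percentiles of segments, such as the low BaitB one of the abd-A span, were not recomputed. That of the complex was 28.1 for BaitA, 20.5 for BaitB and 25.6 for BaitC among windows of 3L, against 70.8, 45.2 and 24.1 on 3R. The cause of the other changes was not tested. The probe spacing and the single arrays limit the precision, and signal over background was not available from the ratios. The start site values depended on the window. Their sign was kept in all 8 settings for BaitA at Ubx and Abd-B, for BaitB at abd-A and for BaitC at Ubx. These settings include the main one and that of at least 20 probes, which repeats it.

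With 0.5 kb on each side, Ubx was at 0.74 for BaitB and 1.18 for BaitC, Abd-B at 0.50 for BaitA, and the medians were 0.50 for the bithorax complex for BaitA and -0.39 for the Antennapedia complex for BaitB. With 2 kb, Ubx was at 0.60 for BaitA and abd-A at -1.355 for BaitB, the bithorax median was 0.60 for BaitA, and the Antennapedia medians were 0.91 for BaitA and -0.64 for BaitB. With 5 kb, Ubx was at 0.58, -0.81 and 0.083 for BaitA, BaitB and BaitC, abd-A at 0.35 for BaitA, Abd-B at 0.62 for BaitA and 0.62 for BaitB, and the BaitA medians were 0.58 for the bithorax and 0.58 for the Antennapedia complex.

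Centred on 3R beyond 10 Mb, Ubx was at 1.89 for BaitA and 0.28 for BaitB, abd-A at -0.00061 and -1.40, Abd-B at 1.76 and 0.17, and the complex mean was 0.44 and 0.25. The share of bins above was then 35.1% for BaitA and 28.4% for BaitB, and the share below 10.8% for BaitA and 8.11% for BaitC. With medians over probes, Ubx was at 0.63 and Abd-B at -1.115 for BaitB, 39.2% of BaitA bins lay below and 21.6% of BaitB bins above. The BaitB segments were then at -0.57 for the left flank, -1.45 between Ubx and abd-A, -2.635 for abd-A and -1.38 for Abd-B, and the BaitA ones at 0.585 for abd-A and -1.195 between abd-A and Abd-B.

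In 10 kb bins the shares above were 10.8%, 2.70% and 2.70% for BaitA, BaitB and BaitC, those below 16.2% for BaitB and 2.70% for BaitC, and r between BaitA and BaitC was 0.564. In 2 kb bins 23.6% of BaitB bins lay above. A call at 1.5 gave 12.2%, 5.41% and 1.35% above, and 13.5% for BaitA and 1.35% for BaitC below. A call at 0.5 gave 25.7% for BaitB and 14.9% for BaitC above, and 41.9% for BaitA and 27.03% for BaitC below. With at least 50 probes a bin, 4.17% of BaitC bins lay above. The right flank from the next gene on, a setting added after seeing the data, was at 1.04, 0.75 and 0.32. Peaks of FDR at most 0.2 numbered 12, 23 and 14, and BaitB peaks of FDR at most 0.01 numbered 2. Within 1 kb, 1 BaitA peak met a BaitB peak and 1 BaitB peak a BaitC peak.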
